A study of Homo sapiens with 17 samples.

Results

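The comparison set NKYS cells that had received JAK3 siRNA against NKYS cells that had received a control siRNA meant for it. It used 4 of the 17 arrays of the study, the 2 titled as JAK3 siRNA and the 2 titled as control siRNA for the JAK3 knockdown, taken by their titles. NKYS is an established human line of extranodal NK/T-cell lymphoma. All cells grew in medium with serum and 100 IU/mL recombinant human IL-2, so that the control cells were stimulated as well, and siRNA or plasmid was delivered by Neon electroporation. Total RNA was taken with TRIzol and a column, and biotin-labelled cDNA was made from 100 ng with Nugen kits. The other 13 arrays carried EZH2 siRNA, its own control siRNA, or vector and EZH2 plasmids, and of these the 4 arrays of the EZH2 siRNA arm were used here, for the spread of each gene and for a second pair of control siRNA arrays. The labels do not give the siRNA sequences or the time after electroporation, and do not say whether arrays 1 and 2 of JAK3 siRNA received the same siRNA or came from separate cultures. An effect of the siRNA itself and an effect of lower JAK3 cannot be told apart in this design, and p-values measure the scatter of these arrays alone, part or all of which may be technical.

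JAK3 is a cytoplasmic tyrosine kinase that is bound to the common gamma chain, IL2RG, the receptor subunit shared by the receptors for IL-2, IL-4, IL-7, IL-9, IL-15 and IL-21. In NK cells IL-2 and IL-15 bring IL2RG together with IL2RB, JAK3 and its partner JAK1 phosphorylate the receptor and the transcription factors STAT5A and STAT5B, and dimers of these enter the nucleus. Among the genes they induce are CISH and members of the SOCS family, which feed back on the receptor, and survival genes of the BCL2 family, while BCL6 is a gene they repress. The same receptors also feed the RAS to ERK cascade, whose output includes phosphatases and adaptors such as DUSP6 and the SPRED proteins that damp it.

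Some members are described with the DNA just before their start, because the transcription factors named above bind there. STAT5 dimers bind the palindrome TTCNNNGAA, and CISH is a classical gene with several copies of it. The 250 bases before the annotated start of CISH held 4 copies, which are in capitals below. The sequence is that of RefSeq on GRCh38.p14, written 5′ to 3′ on the strand of the gene.
CISH, chr3:50611775-50612024, minus strand: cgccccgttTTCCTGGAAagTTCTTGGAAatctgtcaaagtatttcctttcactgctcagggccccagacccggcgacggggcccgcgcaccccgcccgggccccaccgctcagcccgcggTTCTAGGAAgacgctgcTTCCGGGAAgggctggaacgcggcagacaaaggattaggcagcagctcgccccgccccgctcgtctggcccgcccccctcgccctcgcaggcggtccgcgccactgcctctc
The palindrome reads alike on both strands and was counted once per place. It occurred in 2306 of 35116 such windows of all genes (6.57%), and only 5 windows (0.0142%) had 4 or more copies. Among called genes with a window it was present for 14 of 88 that fell and 6 of 72 that rose, against 824 of 11294 genes tested (7.3%). The windows of SOCS1, DUSP6 and BCL2L1 had 0 copies in these 250 bases, and that of CD274 had 1. A match describes the letters and no match says nothing of the factor.

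Metallothioneins are small proteins that bind zinc and copper, and their genes are switched on by the zinc sensor MTF1 through metal response elements, whose core is written TGCACNC or TGCGCNC. The windows of 3 metallothionein genes that rose are printed below from the same RefSeq build, with each copy of the core, on either strand, in capitals. They are shown because 4 genes of this family rose.
MT2A, chr16:56608334-56608583, plus strand: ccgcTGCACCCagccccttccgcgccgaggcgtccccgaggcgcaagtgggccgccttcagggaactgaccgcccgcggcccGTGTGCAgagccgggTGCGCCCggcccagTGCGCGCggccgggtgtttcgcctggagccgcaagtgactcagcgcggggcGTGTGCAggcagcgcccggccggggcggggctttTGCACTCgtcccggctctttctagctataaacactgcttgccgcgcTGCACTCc
MT1X, chr16:56682220-56682469, plus strand: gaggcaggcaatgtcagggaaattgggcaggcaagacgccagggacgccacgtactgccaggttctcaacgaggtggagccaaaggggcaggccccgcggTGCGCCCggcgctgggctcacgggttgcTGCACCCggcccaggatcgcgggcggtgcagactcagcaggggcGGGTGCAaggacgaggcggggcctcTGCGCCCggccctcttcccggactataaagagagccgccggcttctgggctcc
MT1H, chr16:56669564-56669813, plus strand: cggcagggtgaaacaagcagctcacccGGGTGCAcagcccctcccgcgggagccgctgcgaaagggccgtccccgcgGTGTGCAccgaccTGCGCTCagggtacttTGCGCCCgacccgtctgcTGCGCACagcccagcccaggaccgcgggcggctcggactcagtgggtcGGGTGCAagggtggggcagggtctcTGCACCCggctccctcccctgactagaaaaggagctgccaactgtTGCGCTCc
There were 7 copies for MT2A, 4 for MT1X and 8 for MT1H, counted on both strands, and no copy overlapped another. Of all 35116 windows, 24.8% had at least 1 copy and 0.37% had 4 or more. Among called genes with a window, 26 of 72 that rose and 28 of 88 that fell had at least 1 copy. Of the genes tested, 4271 of 11294 did (37.8%). At 4 or more copies there were 5 of the 72, the 3 printed genes among them, 0 of the 88 and 72 of the 11294. The windows of family members that did not rise were not examined by name. One more sequence belongs to a gene that rose, MIR21, which codes for a microRNA common in lymphoma. Its signal was that of a probe set of the gene, and whether the mature product rose was not tested. The mature product hsa-miR-21-5p (chr17:59841273-59841294, plus strand, RefSeq GRCh38.p14) has the following bases, with the seed, bases 2 to 8, in capitals.
hsa-miR-21-5p: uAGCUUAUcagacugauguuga

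Signal was measured as linear intensity for 28869 probe sets, and 14466 genes with a probe set of a single symbol had a mean signal above the filter. The median intensity of the 4 arrays was 60.41 to 61.18 and the lower quartile 32.43 to 32.88, so that the arrays had like overall levels. Levels below the mean array median, 60.9, are called dim. Differences are on the log2 scale, JAK3 siRNA minus control, and a gene is said to have risen or fallen where its limma adjusted p was under 0.05 over all genes tested. By this rule 90 genes rose (0.622%) and 110 fell (0.76%), together 200, or 1.38% of genes tested. At an unadjusted p under 0.05 there were 1794 genes, 12.4% of those tested, against which such counts for lists without a call are read. The changes were small. Their median size was 0.46, the smallest was 0.32, and 124 of the 200 were under 0.5. A further measure of the background is that both JAK3 siRNA arrays lay outside both control arrays for 48.3% of all genes tested (21.2% higher, 27.1% lower), which makes separation of 2 arrays from 2 a weak criterion by itself. All 200 called genes were separated in this way. Both JAK3 siRNA arrays also lay outside all 4 control siRNA arrays of both arms for 152 of the 200 called genes and for 23.6% of all genes tested, though the calls were themselves chosen for their distance from 2 of these 4 controls. The median difference over all genes was -0.01, with 7847 values below 0 and 6618 above. Leaving out an array sets 2 arrays against 1. Of the 200 calls, 26 passed without each of the 4 arrays in turn, 6 that rose and 20 that fell, and 146 passed in none of these 4 fits. The direction of a call could not turn in such a fit, since both JAK3 siRNA arrays lay on the same side of both controls. In size, 180 of the 200 stayed within 20% of their log2 difference in every such fit that tested them. The rest lay between 0.664 and 1.336 times it. A small scatter within groups also helped a gene to be called, which favours such evenness.

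**Figure D1:**
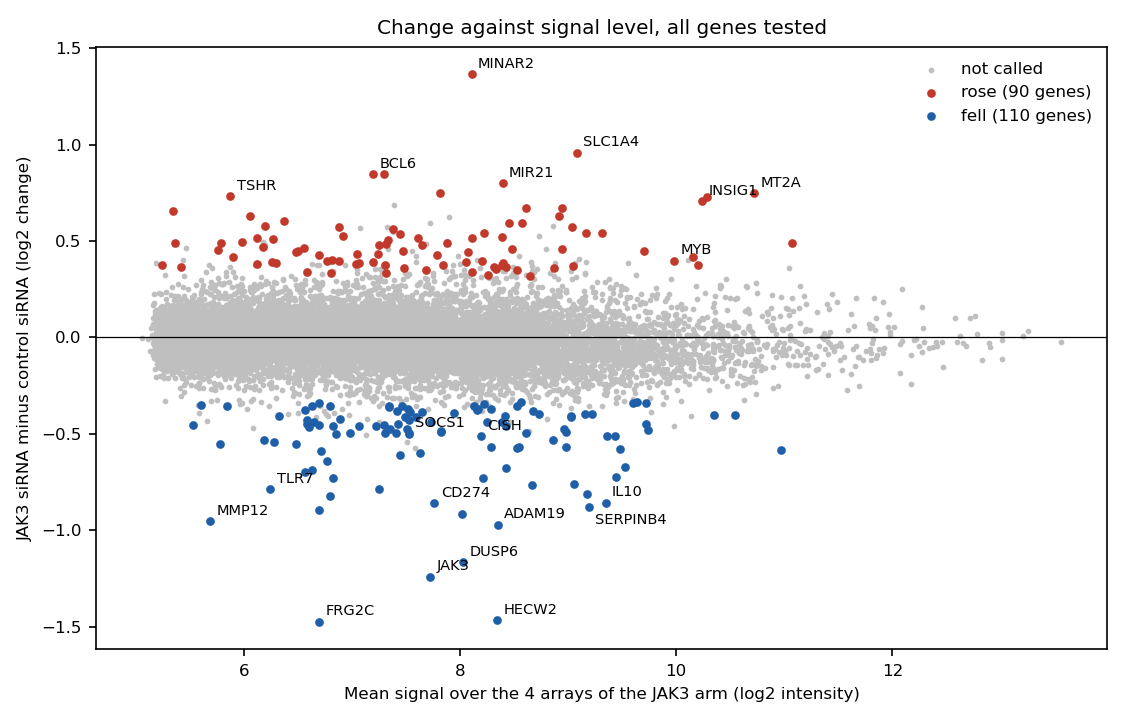
Each point is a gene, with its mean signal over the 4 arrays (log2 intensity) across and its log2 difference, JAK3 siRNA minus control siRNA, upward; red genes rose, blue genes fell and grey genes were not called. Of the 90 red and 110 blue points 124 are within 0.5 of 0, and at such sizes they lie among grey genes, since a call also depends on the scatter of the gene (IFNG at -0.54 is grey).

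JAK3 itself checked the labels. Its signal was 138.1 and 136.7 on the JAK3 siRNA arrays and 322.5 and 326.3 on the control arrays. Both JAK3 siRNA arrays were far below all control arrays, those of the EZH2 arm included, which read 339.9 and 309.7. The log2 difference was -1.24 (SE 0.0692, adjusted p = 5.7e-06), and it stayed between -1.25 and -1.23 with each array left out. None of the other 8 genes of JAK kinases and STAT factors that were tested passed. JAK2, which serves other cytokine receptors, came nearest. It read 94.52 and 90.29 with JAK3 siRNA and 118.5 and 118 with control siRNA, a difference of -0.36 that just missed the threshold (adjusted p = 0.0519). JAK1, the partner kinase at the same receptors, differed by 0.14 (adjusted p = 0.479), STAT5A by 0.07 (adjusted p = 0.734) and STAT5B by 0.07 (adjusted p = 0.789). Among 22 tested genes of the gamma chain and related cytokine receptors, 0 rose and 0 fell by limma, 7 had an unadjusted p under 0.05 and the median was 0.03. IL2RG read 2447 and 2330 with JAK3 siRNA and 2400 and 2234 with control siRNA, and the groups overlapped. IL2RA, the high-affinity subunit for IL-2, overlapped as well, at 4215 and 3939 against 4027 and 3968. IL2RB was above both controls on both arrays, at 671.5 and 721.3 against 621.3 and 624, but its difference of 0.16 did not pass (adjusted p = 0.391). The smallest unadjusted p values in this group belonged to IL10RA (-0.26, adjusted p = 0.13) and IL12RB2 (-0.27, adjusted p = 0.169).

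Feedback and survival genes downstream of STAT5 moved in both directions. Of 27 tested genes in the list of STAT5 feedback and targets, 4 fell and 2 rose, with a median of -0.11 and 18 values below 0. CISH, an SH2 protein that shuts off the IL-2 receptor, had 241.2 and 249 with JAK3 siRNA and 349.8 and 348.5 with control siRNA. SOCS1, which inhibits JAK kinases directly, had 156.3 and 154.7 against 219.6 and 219.4. Both genes were lower on both JAK3 siRNA arrays than on any of the 4 control siRNA arrays, and both fell (CISH by 0.51, adjusted p = 0.00964; SOCS1 by 0.50, adjusted p = 0.0038). OSM, a cytokine of the IL-6 family and a known STAT5 target, was lower too, at 82.64 and 73.86 against 128.2 and 123.2 (-0.69, SE 0.103, adjusted p = 0.00619). BCL2L1, which encodes the survival protein BCL-XL, had 301.3 and 275.2 against 404.3 and 377.7 (-0.44, adjusted p = 0.0124). The fall of BCL2L1 held only against its own controls, since those of the EZH2 arm read 297.1 and 315.7 and did not separate from the JAK3 siRNA arrays. For OSM the EZH2-arm controls read 119.1 and 84.52, the second little above the JAK3 siRNA arrays. Against the EZH2-arm controls the differences were -0.49 for CISH, -0.22 for SOCS1, -0.36 for OSM and -0.09 for BCL2L1.

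BCL6, the repressor that STAT5 holds down in lymphocytes, rose from 118.4 and 101.2 to 196.7 and 197.3 (0.85, SE 0.169, adjusted p = 0.0298). The JAK3 siRNA arrays were above all 4 control arrays, though by little over one of the EZH2 arm, at 192. IGF1R, the receptor for insulin-like growth factor, also rose, from 99.15 and 100.6 to 124.1 and 127.4 (0.33, adjusted p = 0.0415). Other members named in textbooks as STAT5 targets did not pass. BCL2 read 189.7 and 221.4 against 269.5 and 254.2 (-0.35, adjusted p = 0.0925), SOCS2 differed by -0.23 (adjusted p = 0.213), MYC by -0.18 (adjusted p = 0.46) and PIM1 by -0.04 (adjusted p = 0.916). With an array left out these 6 changes stayed within 20% of their size, while their calls were mostly lost. CISH stayed between -0.53 and -0.49, SOCS1 between -0.51 and -0.49, BCL2L1 between -0.51 and -0.38 and BCL6 between 0.73 and 0.96. CISH (adjusted p = 0.102 to 0.132), SOCS1 (0.0614 to 0.0811), BCL2L1 (0.0721 to 0.238) and BCL6 (0.129 to 0.259) missed the threshold whichever array was left out, as did IGF1R, and OSM passed only without JAK3 siRNA array 1 (adjusted p = 0.0361, otherwise 0.0644 to 0.14).

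The brakes of the ERK cascade were led by a steep fall of DUSP6, the cytoplasmic phosphatase that inactivates ERK. It read 167 and 182.4 with JAK3 siRNA and 402.6 and 380.7 with control siRNA. The arrays were well apart, also from the controls of the EZH2 arm at 304.4 and 398.2, and the difference of -1.17 (SE 0.0764, adjusted p = 1.53e-05) passed without each array in turn. SPRED1, which brings neurofibromin to RAS, fell from 154.6 and 137.7 to 98.03 and 79.01 (-0.73, adjusted p = 0.00322). In contrast to these, DUSP4, the nuclear phosphatase of the same family, rose from 163.2 and 140.9 to 190.9 and 223.9 (0.45, adjusted p = 0.0379). Of the 14 tested members of this list, 2 fell and 1 rose, 11 had values below 0 and the median was -0.10. SPRY2 (-0.29, adjusted p = 0.15) and DUSP10 (0.36, adjusted p = 0.19) did not pass. The fall of SPRED1 was lost without JAK3 siRNA array 2 (adjusted p = 0.0558) or control array 1 (0.0778), and the rise of DUSP4 without any one of the 4 arrays (0.0721 to 0.454).

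Upstream of ERK, 2 of 18 tested genes of the RAS and MAP kinase pathway fell and 0 rose, with a median of -0.02. They were RASGRP1, the exchange factor that loads RAS in lymphocytes, from 613.2 and 568.1 to 445.4 and 403.6 (-0.48, adjusted p = 0.00964), and RASA2, which turns RAS off, from 131.1 and 134.4 to 100.5 and 92.77 (-0.46, adjusted p = 0.0298). So an activator and an inhibitor of RAS were both lower on both JAK3 siRNA arrays. RASGRP1 was not below the EZH2-arm controls (432 and 479), and it passed only without JAK3 siRNA array 1 (adjusted p = 0.0489). RASA2 passed in 0 of the 4 fits with an array left out (0.137 to 0.342). The transcription factors that ERK induces did not pass. In the list of ERK output factors limma called 0 of 13 (3 at an unadjusted p under 0.05), with a median of 0.02, and in that of immediate early factors 0 of 22 (2 at that p), with a median of 0.04. Their smallest unadjusted p values were those of ETV5 (0.18, adjusted p = 0.312) and ELK3 (0.19, adjusted p = 0.291), and of JUNB (0.20, adjusted p = 0.301) and ATF3 (0.27, adjusted p = 0.345).

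**Figure D2:**
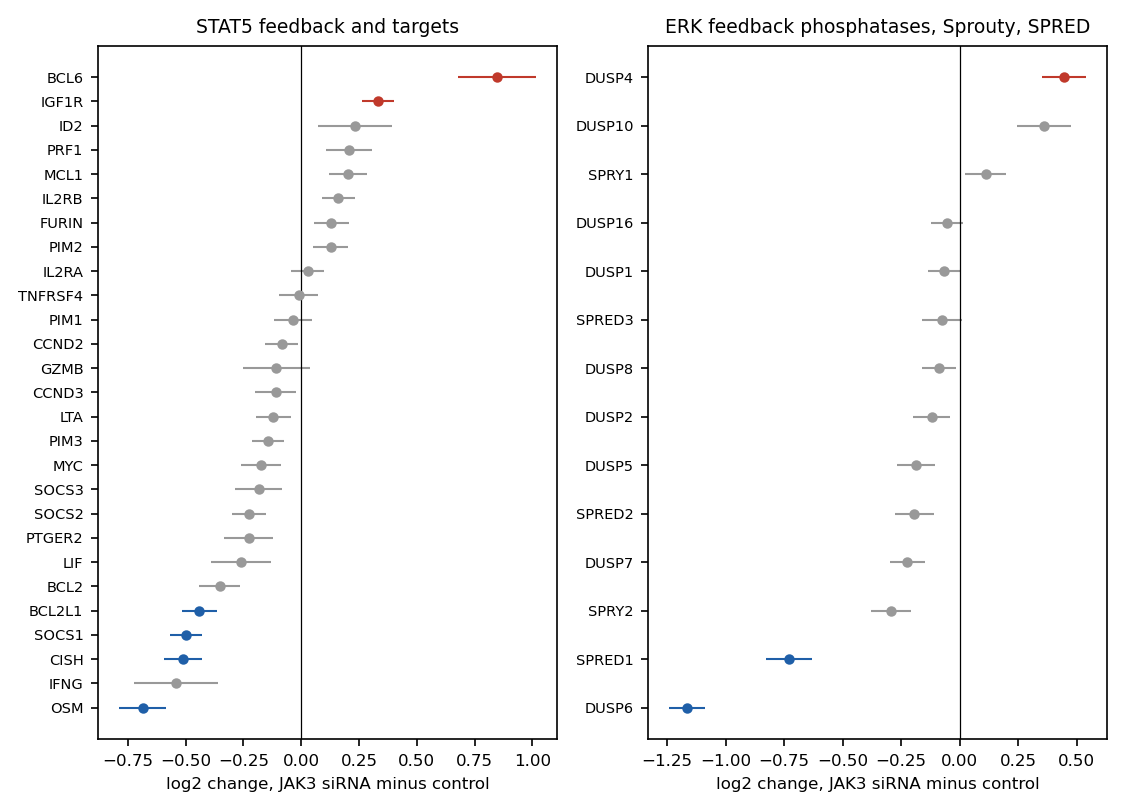
Log2 differences of all tested members of the STAT5 list (left) and the ERK feedback list (right), JAK3 siRNA minus control siRNA; points are the estimates, bars the limma SE, blue genes fell, red genes rose and grey genes were not called. CISH, SOCS1, OSM and BCL2L1 lie to the left and BCL6 and IGF1R to the right, and DUSP6 lies farthest from 0 on the right-hand panel at -1.17.

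Of the secreted factors and surface ligands that shape immune responses, 2 cytokines and 3 checkpoint genes fell. IL10, an anti-inflammatory cytokine that NK/T lymphoma cells secrete, had 480 and 489.4 with JAK3 siRNA and 904.3 and 852.2 with control siRNA. The EZH2-arm controls were higher still, at 1077 and 1305, and the fall of IL10 (-0.86, SE 0.0831, adjusted p = 0.000291) passed without each array in turn. Of 21 tested cytokine and chemokine genes, 2 fell (IL10 and OSM) and 0 rose, with a median of -0.07. CCL5, a chemokine of cytotoxic cells, differed by -0.32 (adjusted p = 0.0632), and IFNG by -0.54 with an SE of 0.181 (adjusted p = 0.214), so that neither passed.

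CD274, the gene of the inhibitory ligand PD-L1, fell from 309.4 and 276.9 to 155.5 and 167.4 (-0.86, SE 0.0872, adjusted p = 0.00031). The JAK3 siRNA arrays were below all 4 controls, of which one of the EZH2 arm read 176.1 and the other 294.4, and the call held without each array in turn. Also lower were HAVCR2, the inhibitory receptor TIM-3, at 102.1 and 92.46 against 135.9 and 139.4 (-0.50, adjusted p = 0.00991), and ICOS, a costimulatory receptor, at 248.8 and 258 against 329.4 and 325 (-0.37, adjusted p = 0.0271). These 3 were the calls among 19 tested checkpoint receptors and ligands, of which 0 rose, and the list had a median of -0.01. The calls of HAVCR2 (0.0553 to 0.19) and ICOS (0.2 to 0.299) were lost without any one of the arrays. The other PD-1 ligand, PDCD1LG2, overlapped between groups (-0.05, adjusted p = 0.922), and so did LAG3 (-0.01, adjusted p = 0.979). Among 22 genes of the TNF receptor family and their ligands limma called 0, 4 had an unadjusted p under 0.05 and the median was -0.05. TNFRSF9 read 970.4 and 982.5 against 1333 and 1255 (-0.41, SE 0.136), which did not pass (adjusted p = 0.215). Its EZH2-arm controls, at 406 and 718.6, were below both JAK3 siRNA arrays.

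Markers shared by NK and T cells were read on all 4 arrays. The summed level of 16 tested ones was 10690 to 11060, most of it from PRF1 (2994 to 3513) and GZMB (3547 to 3871). The summed level of 6 B cell markers was 451.4 to 495.8 and of 5 monocyte markers 366.5 to 397.7. For 6 T cell markers it was 851.9 to 901.7 and for 7 epithelial and fibroblast markers 522.7 to 544.2. In the last 4 lists limma called 0 genes, with 1, 1, 0 and 1 at an unadjusted p under 0.05. The sums cover unlike numbers of genes. On the JAK3-arm controls the median level was 188 for the shared markers and 63.5, 58.4, 64.8 and 67.1 for those 4 lists. For the tested NK surface receptor genes it was 68.1, little above the dim level of 60.9. The CD3 genes CD3D, CD3E and CD3G, which define T cells, did not reach the signal filter. Among the 6 T cell markers that did, TRAT1 read 262 and 263.1 with JAK3 siRNA and 241.8 and 212.3 with control siRNA. CD5, also among them, was dim (45.2 to 48.57). In bulk RNA fewer cells of a type and less RNA per cell cannot be told apart. Within the NK list itself NCAM1 (CD56), the surface marker of NK cells, fell from 178.3 and 189.1 to 141.3 and 144.4 (-0.36, adjusted p = 0.0298). KLRD1, the CD94 subunit of the NKG2 receptors, fell from 192.7 and 192.2 to 136.7 and 140.3 (-0.47, adjusted p = 0.00991). NCAM1 was below all 4 control arrays, whereas KLRD1 was above the EZH2-arm controls, which read 99.9 and 103.7. CLEC2D, a ligand of the NK receptor CD161, rose from 139.3 and 134.8 to 224.8 and 182.3 (0.56, adjusted p = 0.00976). The 3 were all the calls among 21 NK surface receptor genes, whose median was -0.02. NCAM1 and KLRD1 passed in 0 of the 4 fits with an array left out (0.185 to 0.307 and 0.11 to 0.144), and CLEC2D only without JAK3 siRNA array 2 (adjusted p = 0.00926). Killing machinery was not called, with 0 of 15 granule genes passing limma's test and 2 at an unadjusted p under 0.05. PRF1 (0.21, adjusted p = 0.438) and GZMB (-0.11, adjusted p = 0.838) did not pass, and of the 22 NK lineage transcription factors 0 passed (5 at an unadjusted p under 0.05), with GATA3 (0.31, adjusted p = 0.0766) nearest.

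Genes of homing moved in opposite directions. ITGA4, the alpha chain of the VLA-4 integrin, rose from 724.4 and 697.2 to 964.4 and 977.9 (0.45, adjusted p = 0.00837), and both JAK3 siRNA arrays were above all 4 controls. CXCR4, the receptor for CXCL12, fell from 437.9 and 464.4 to 311.5 and 294.6 (-0.57, adjusted p = 0.00191). Its level on the EZH2-arm controls was 298.6 and 291.6, close to that with JAK3 siRNA. They were the only calls among 16 chemokine receptor and homing genes, with a median of 0.03. ITGA4 passed in 0 of the 4 fits with an array left out (0.095 to 0.144), and CXCR4 was lost without JAK3 siRNA array 2 (0.0576) or control array 2 (0.0587).

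Genes of 1 small family rose on chromosome 16. MT2A, the main metallothionein, went from 1314 and 1292 to 2178 and 2204. Both JAK3 siRNA arrays were far above the controls, and above those of the EZH2 arm (870.4 and 816.3), and the rise of 0.75 (SE 0.0698, adjusted p = 0.000255) passed without each array in turn. All 3 probe sets of the gene rose alike, by 0.98, 0.75 and 0.76. MT1X rose from 337 and 285.6 to 469.6 and 466.8 (0.59, adjusted p = 0.00458), MT1G from 94.96 and 95.33 to 114.2 and 137.4 (0.40, adjusted p = 0.0484) and MT1H from 88.32 and 82.76 to 106 and 110.4 (0.34, adjusted p = 0.0423). MT1DP, a pseudogene of the family outside the list, rose from 163 and 177.2 to 243.5 and 231.1 (0.48, adjusted p = 0.00864). In the RefSeq order MT4, MT3, MT2A, MT1E, MT1M, MT1A, MT1B, MT1F, MT1G, MT1H and MT1X, the last 3 were adjacent and all rose, whereas MT2A rose between MT3 and MT1E, which did not pass. MT1A was not tested. MT1E had -0.04, MT1M -0.01, MT3 -0.04, MT1F 0.11 and MT1B 0.09, with adjusted p from 0.604 to 0.982. The MT1 genes are near-identical copies, so that probes may not tell them apart and their single values are uncertain. The family was the whole of what moved in its list, in which 4 of 22 rose and 0 fell, with a median of 0.03. The zinc sensor MTF1 (0.01, adjusted p = 0.974) and the zinc exporter SLC30A1, another of its targets (0.14, adjusted p = 0.54), did not pass. Without one array MT1X passed only when control array 1 was left out (adjusted p = 0.00993), MT1G only when JAK3 siRNA array 1 was (0.0485; its difference was 0.26 without JAK3 siRNA array 2), and MT1H (0.218 to 0.407) and MT1DP (0.0587 to 0.174) in no such fit.

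Another neighbouring group fell. SERPINB13, SERPINB4 and SERPINB3, inhibitors of serine and cysteine proteases that are known from squamous epithelium, follow each other on chromosome 18 in RefSeq. SERPINB4 had 441.3 and 422.9 with JAK3 siRNA and 798 and 791.1 with control siRNA, SERPINB3 had 305 and 317.4 against 520 and 538, and SERPINB13 had 415.5 and 401.4 against 715.8 and 669.9. Every JAK3 siRNA array was below its controls in all 3 genes, with differences of -0.88, -0.77 and -0.76 (adjusted p = 0.000389, 0.00283 and 0.00031). The EZH2-arm controls of SERPINB4 read 255.9 and 493.3 and enclosed the JAK3 siRNA arrays, while those of SERPINB3 (380.2 and 441.5) and SERPINB13 (508.3 and 536.7) were above them. SERPINB3 and SERPINB4 are near-identical copies, so that one may carry signal of the other. The 3 were among 5 tested clade B genes, and the other two, SERPINB1 and SERPINB8, overlapped between groups. SERPINB3 was lost without JAK3 siRNA array 1 (0.0515) or control array 2 (0.0541).

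**Figure D3:**
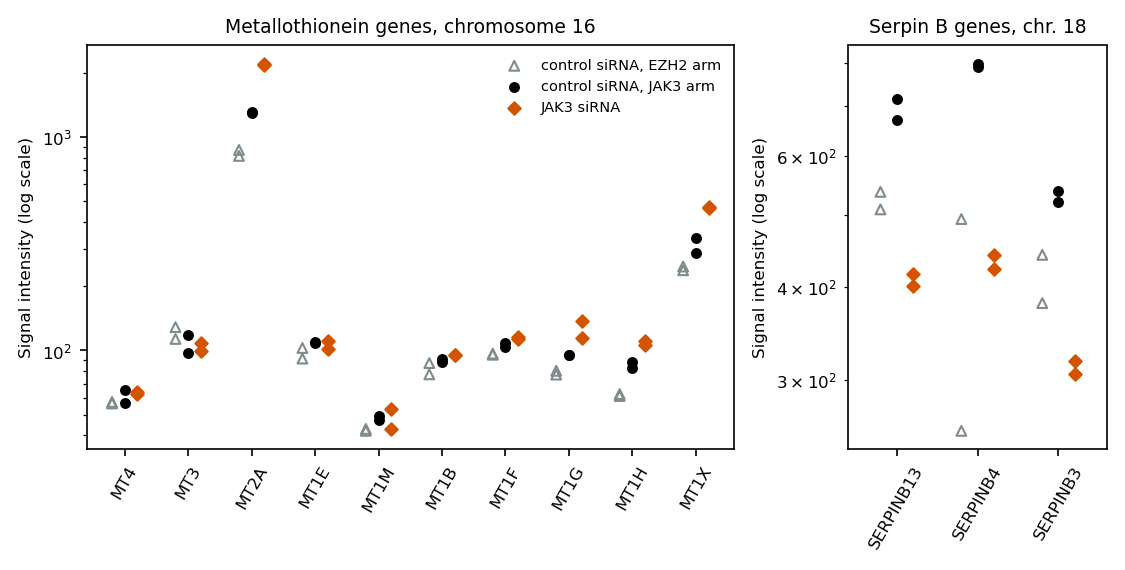
Signal intensity on a log scale of the tested metallothionein genes of chromosome 16 (left) and of 3 serpin genes of chromosome 18 (right), in RefSeq order, with 1 point per array; diamonds are JAK3 siRNA, filled circles its control siRNA and open triangles the control siRNA of the EZH2 arm. MT2A, MT1G, MT1H and MT1X are above both sets of controls, MT1E, MT1M and MT3 are not, and the open triangles of SERPINB4 lie around its diamonds.

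Other large falls belonged to genes of varied roles. ADAM19, a membrane protease of the ADAM family, had 229.8 and 235.4 against 465.3 and 446.7 (-0.97, SE 0.0753, adjusted p = 6.49e-05), and stayed below the EZH2-arm controls of 313.7 and 280.6. MMP12 fell as well (-0.95), near background and not below the EZH2-arm controls, and both were called among 26 metalloproteases and inhibitors, of which 0 rose. EMP1, a membrane protein linked to growth control, had 181.9 and 196.4 against 373.1 and 340.3 (-0.92, adjusted p = 0.000153). LCP2, the adaptor SLP-76 that carries signals of activating lymphocyte receptors, had 427.3 and 444.7 against 783.1 and 748.8 (-0.81, adjusted p = 0.000223). Both were below all 4 control arrays, LCP2 by little, since its EZH2-arm controls read 480.6 and 481.2. Against those controls LCP2 differed by -0.14 and EMP1 by -0.79. TLR7, a sensor of viral RNA inside endosomes, fell from 91.45 and 108.6 to 57.28 and 58.36 (-0.79, adjusted p = 0.000846), but had 46.43 and 38.72 on the EZH2-arm controls. ISL1, a homeobox gene, fell from 146.8 and 148.5 to 83.44 and 83.64 (-0.82, adjusted p = 0.000291), with 89.72 and 74.41 on those controls. HTR3B and FRG2C had the same pattern of control levels, and FRG2C has near-identical copies in the genome, which makes its value uncertain. HECW2 (-1.47, adjusted p = 0.000389), a ubiquitin ligase, had 196.9 and 193.8 against 552.1 and 526.6, below the EZH2-arm controls of 315.4 and 230.5. DEPP1, a target of FOXO factors, fell from 191.8 and 207.9 to 116.8 and 115 (-0.79, adjusted p = 0.00964), and is the only gene of this paragraph whose call was lost without any one of the 4 arrays (0.0779 to 0.14).

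Large rises outside the metallothioneins also had varied roles. SLC1A4, a carrier of alanine, serine and cysteine, rose from 393.2 and 382.8 to 783.7 and 724.5 (0.96, SE 0.105, adjusted p = 0.000549). It was the 1 call among 20 amino acid transporters, whose median was -0.04, and it passed without each array in turn. INSIG1, which holds back sterol synthesis when sterols are plentiful, rose from 973.6 and 918.6 to 1563 and 1526 (0.71, adjusted p = 0.0143). No other gene among 26 of cholesterol and fatty acid synthesis was called, and the median was -0.03. ATP2B4, a calcium pump of the plasma membrane, rose from 963.8 and 974.3 to 1629 and 1577 (0.73, adjusted p = 0.0119). ANTXR2, a receptor for collagen and anthrax toxin, rose from 309 and 309.8 to 492.7 and 494.3 (0.67, adjusted p = 0.000389). TRIB1, a pseudokinase that directs proteins to degradation, rose from 168.4 and 179.1 to 297.8 and 285.4 (0.75, adjusted p = 0.000304), and TSHR, the thyrotropin receptor, from 44.18 and 47 to 73.21 and 78.18 (0.73, adjusted p = 0.000308). In all 6 genes the JAK3 siRNA arrays were above all 4 control arrays. ANTXR2, TRIB1 and TSHR passed without each array in turn, whereas INSIG1 (0.12 to 0.157) and ATP2B4 (0.11 to 0.144) missed the threshold whichever array was left out.

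Further rises were uneven in support. MIR21 read 444.4 and 443.4 against 259.3 and 250.4 (0.80, SE 0.178, adjusted p = 0.0497), and MINAR2 448.8 and 436 against 181.3 and 162.9 (1.36, SE 0.285, adjusted p = 0.038). The EZH2-arm controls spread widely in both genes, at 152.9 and 221.9 for MIR21 and 98.48 and 270.6 for MINAR2. LAYN, a hyaluronan receptor, rose by 0.85 (adjusted p = 0.000434) by the brighter of 2 probe sets, while the other had 0.13. AHNAK, a giant scaffold protein, rose from 383.7 and 395.2 to 608.4 and 596.2 (0.63, adjusted p = 0.0118), FAM107B from 397.8 and 381.8 to 629.3 and 612 (0.67, adjusted p = 0.00976) and IRAG2, a lymphoid protein of the endoplasmic reticulum, from 53.13 and 53.9 to 79.31 and 86.57 (0.63, adjusted p = 0.00162). These JAK3 siRNA arrays were above all controls of both arms. ROCK1P1 rose by 0.65 (adjusted p = 0.0108) but is dim and a pseudogene copy. LAYN passed without each array in turn, IRAG2 without all but JAK3 siRNA array 2 (0.0538), ROCK1P1 in 2 of the 3 such fits that tested it, and MIR21 (0.276 to 0.316), MINAR2 (0.218 to 0.268), AHNAK (0.102 to 0.162) and FAM107B (0.102 to 0.129) in none.

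**Figure D4:**
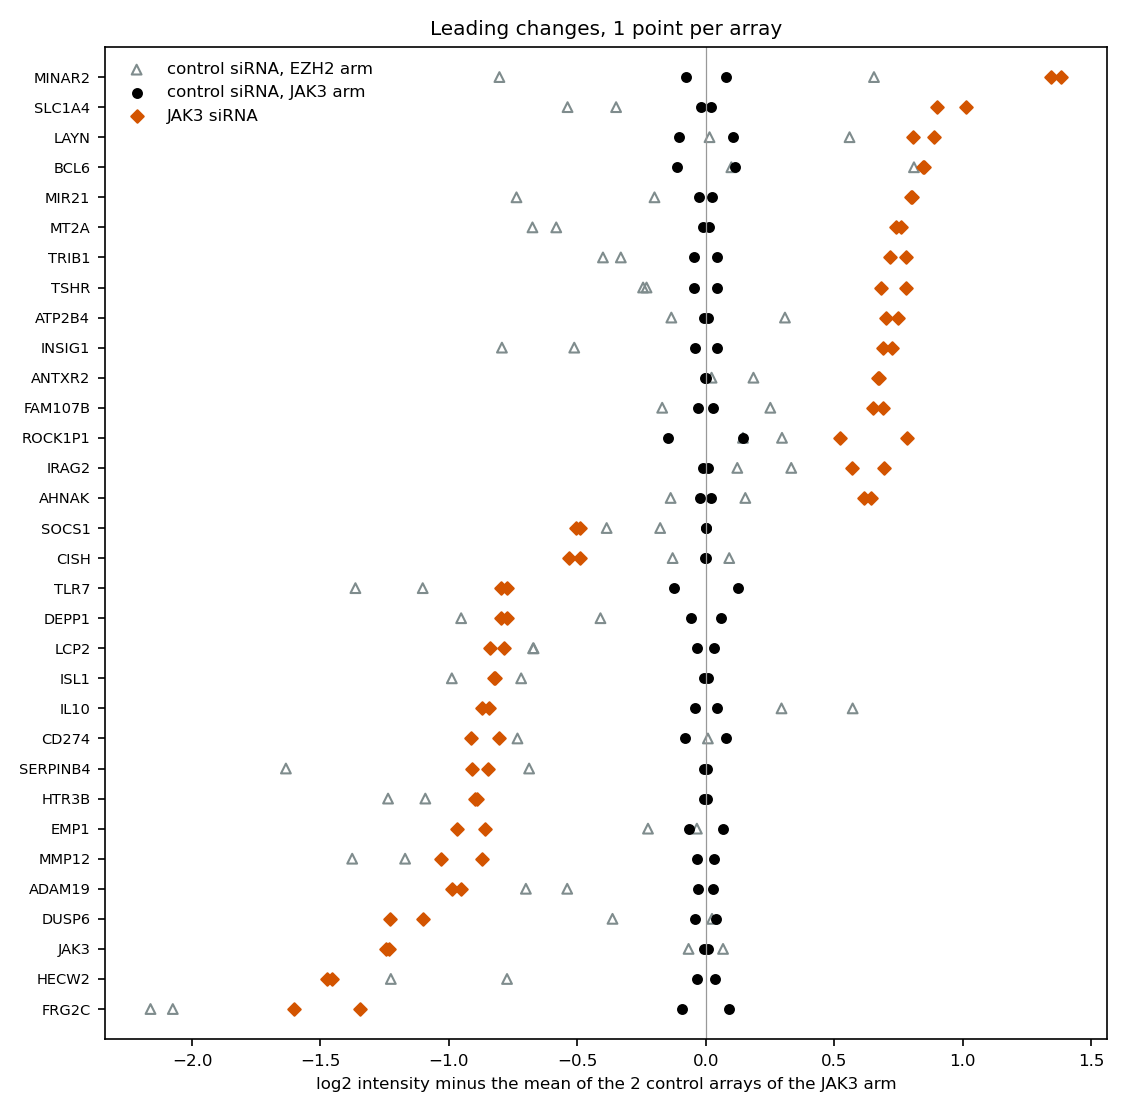
Log2 intensity of each array minus the mean of the 2 control arrays of the JAK3 arm, for the 15 largest rises and 15 largest falls and for CISH and SOCS1; diamonds are JAK3 siRNA, filled circles its control siRNA and open triangles the control siRNA of the EZH2 arm. Diamonds are apart from filled circles in every gene. For FRG2C, HTR3B, MMP12, ISL1, TLR7, DEPP1 and SERPINB4 at least 1 triangle lies as far to the same side of 0 as the diamonds. For INSIG1 a triangle lies as far from 0 on the other side.

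Receptors and mediators of TGF-beta, a cytokine that restrains NK cells, split. TGFBR1, the signalling kinase, fell from 464.7 and 461.7 to 347.2 and 312 (-0.49, adjusted p = 0.00864), and TGFBR3, the co-receptor betaglycan, from 143.3 and 132.1 to 103.4 and 102 (-0.42, adjusted p = 0.012). SMAD3, which carries the signal to the nucleus, rose from 80.65 and 79.15 to 111 and 109.7 (0.47, adjusted p = 0.00571). None of the 3 was apart from all 4 control arrays. The EZH2-arm controls read 254.9 and 292.8 for TGFBR1, 107.8 and 97.6 for TGFBR3 and 117.2 and 131.7 for SMAD3, so that against those controls TGFBR1 (0.27) and SMAD3 (-0.17) had the opposite sign and TGFBR3 was near 0 (0.002). The 3 were the calls among 22 genes, with a median of -0.03. TGFBR1 passed only without JAK3 siRNA array 1 (0.0379), and TGFBR3 (0.0682 to 0.247) and SMAD3 (0.0925 to 0.0973) in no fit with an array left out.

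Regulators of the cell cycle changed in both directions. MYB, a transcription factor of haematopoietic progenitors, rose from 887.6 and 874.2 to 1152 and 1169 (0.40, adjusted p = 0.013), and its relative MYBL1 fell from 150.9 and 148.4 to 105.5 and 107 (-0.49, adjusted p = 0.00558). RBL2, the p130 pocket protein that holds E2F targets silent in resting cells, rose from 144.2 and 133.9 to 191.6 and 170.2 (0.38, adjusted p = 0.0435), and E2F7 fell from 339.9 and 331.9 to 265.7 and 262.6 (-0.35, adjusted p = 0.0302). Each of these genes was outside all 4 control arrays in its direction. Of 25 tested genes of G1 cyclins, E2F and MYB factors these were the 4 calls, while 21 values were below 0 and the median was -0.10. SPC25, a kinetochore subunit, fell from 139.1 and 118.6 to 93.8 and 77.82 (-0.59, adjusted p = 0.0235) as the 1 call among 33 mitosis genes. The CDK inhibitor p27, CDKN1B, had 396.2 and 369.9 against 313.1 and 305.8, but did not pass (0.31, adjusted p = 0.113). The 5 calls of this paragraph were lost without any one of the 4 arrays (MYB 0.137 to 0.189, MYBL1 0.0682 to 0.104, RBL2 0.14 to 0.425, E2F7 0.208 to 0.347, SPC25 0.0515 to 0.337).

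Lists of growth machinery had mostly small values below 0 and almost no call. Among 36 ribosome biogenesis factors limma called 0, but 20 had an unadjusted p under 0.05, 35 had values below 0 and the median was -0.19, beside -0.01 for all genes tested. LYAR read 375.6 and 346.5 against 461.4 and 436.6 (-0.32, adjusted p = 0.1), and WDR12 308.5 and 312.5 against 395.9 and 363.5 (-0.29, adjusted p = 0.1). Both were lower on both JAK3 siRNA arrays than on both controls, as were 33 of the 36 members and 27.1% of all genes tested. The list's median was between -0.21 and -0.16 over all 14 alternatives. Of 27 chaperone genes 26 lay below 0, their median was -0.13, and 1 fell, HSPH1, a nucleotide exchange factor of HSP70, from 1768 and 1671 to 1322 and 1280 (-0.40, adjusted p = 0.0143). HSPH1 was not below all EZH2-arm controls (1560 and 1271) and passed in no fit with an array left out (0.101 to 0.26). For DNA replication 32 of 40 genes lay below 0, with -0.12 as the median, proteasome subunits 34 of 39 and -0.09, nuclear pore genes 30 of 37 and -0.10, and spliceosome genes 30 of 39 and -0.08, with 0 limma calls in each and 12, 5, 10 and 4 genes in turn at an unadjusted p under 0.05. Of these NUP54 came nearest (-0.33, adjusted p = 0.0592). Cytosolic ribosomal proteins differed from this pattern, with 32 of 59 values below 0 and a median of -0.01. Among 30 subunits of RNA polymerases 24 were below 0, and POLR3G fell from 282.4 and 283.2 to 210.5 and 221.1 (-0.39, adjusted p = 0.0193). PPAT, the first enzyme of purine synthesis, fell from 374.3 and 336.9 to 269.6 and 279.1 (-0.37, adjusted p = 0.0405), 1 call among 27 nucleotide and one-carbon genes. POLR3G (0.159 to 0.253) and PPAT (0.11 to 0.518) also passed in no fit with an array left out.

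Small nucleolar RNAs had the opposite sign. H/ACA RNAs, which guide the conversion of uridine to pseudouridine, were listed together with Cajal body RNAs. Of the 73 tested members of this list, 65 had values above 0, the median was 0.16, 30 had an unadjusted p under 0.05 and 4 rose. SNORA65 went from 984.5 and 1084 to 1306 and 1378 (0.38, adjusted p = 0.0301) and SCARNA16 from 283.8 and 306.7 to 357.5 and 415.4 (0.39, adjusted p = 0.0497). SNORA2A (0.40, adjusted p = 0.0145) and SNORA2B (0.38, adjusted p = 0.0427) are near-identical copies, so that their separate values are uncertain, and SNORA2A read 162.3 and 201.2 on the EZH2-arm controls, above its 137.4 and 132.6 with JAK3 siRNA. The 4 calls were lost without any one array (SNORA65 0.102 to 0.448, SCARNA16 0.0868 to 0.548, SNORA2A 0.147 to 0.215, SNORA2B 0.131 to 0.405). Box C/D RNAs, which guide methylation of ribosomal RNA, had 52 of 64 values above 0 and a median of 0.11, with 0 limma calls and 15 at an unadjusted p under 0.05. The proteins of the H/ACA particle did not follow. DKC1, the pseudouridine synthase, read 691.8 and 702.3 against 865 and 873.1 (-0.32, adjusted p = 0.153), GAR1 differed by -0.10 (adjusted p = 0.763), NOP10 by -0.08 (adjusted p = 0.713) and NHP2 by 0.12 (adjusted p = 0.627). How much of these short RNAs the extraction column retained on each array was not tested.

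**Figure D5:**
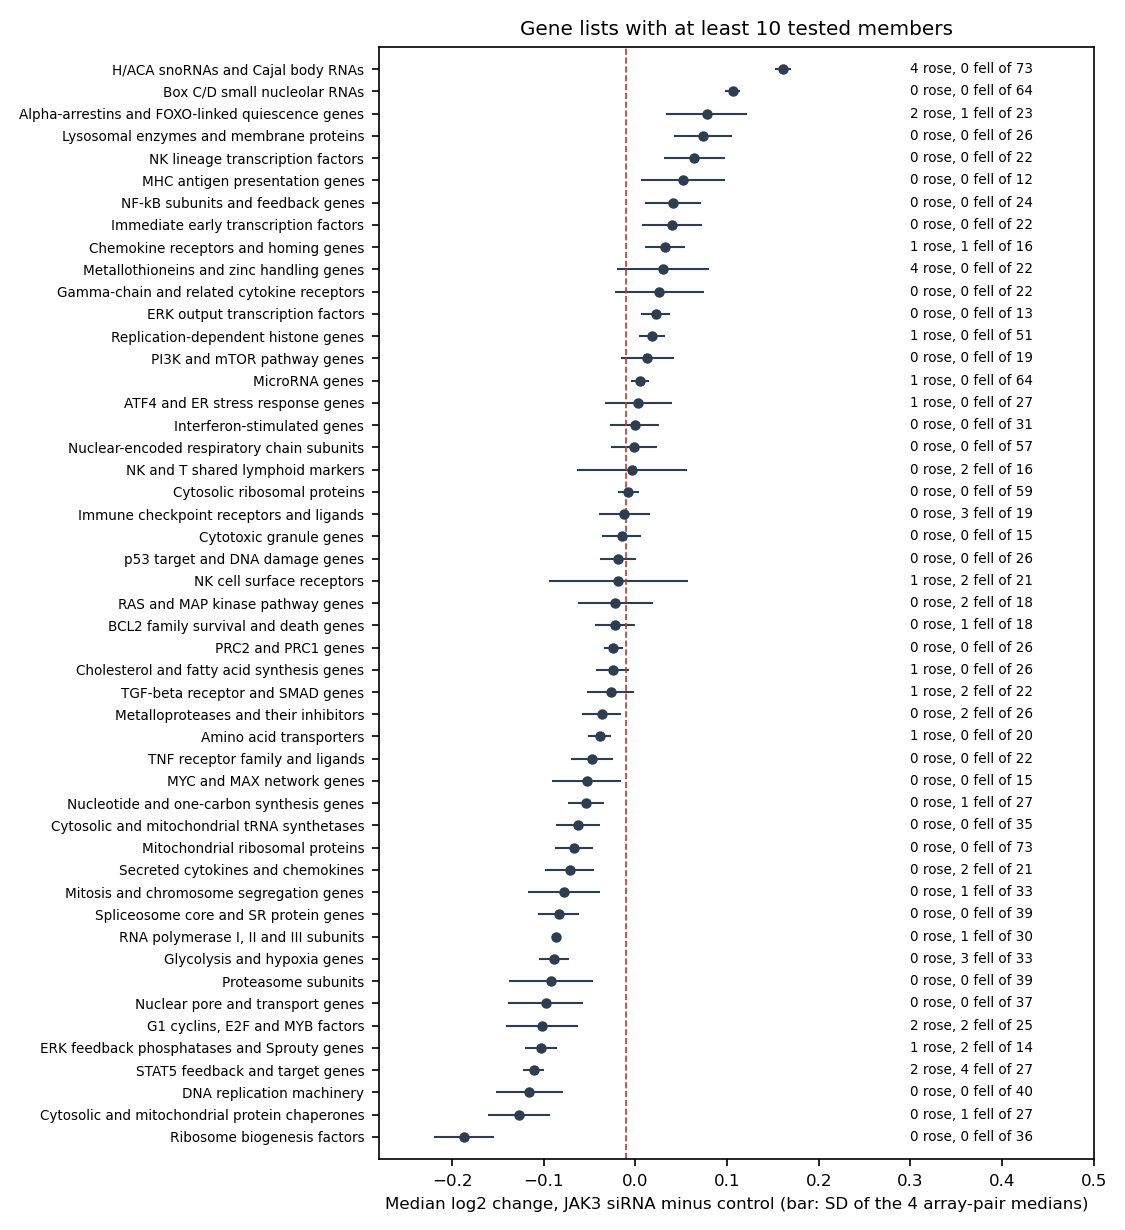
Median log2 difference, JAK3 siRNA minus control siRNA, of each list with at least 10 tested genes; the bar is the SD of the medians of the 4 combinations of a JAK3 siRNA array with a control array, the dashed line is the median of all genes, and the counts of called genes stand at the right. Ribosome biogenesis factors lie lowest at -0.19 and H/ACA RNAs highest at 0.16, and most lists lie near the dashed line.

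The 3 calls among genes of sugar and oxygen metabolism were falls, out of 33 tested, with a list median of -0.09 and 26 values below 0. HK2, which commits glucose to glycolysis, went from 392.9 and 321.8 to 254.3 and 270.2 (-0.44, adjusted p = 0.0427). PDK1, a kinase that inhibits pyruvate dehydrogenase, went from 331.4 and 317.4 to 251.9 and 248.3 (-0.38, adjusted p = 0.0193). P4HA1, a collagen hydroxylase, went from 489.9 and 446.3 to 349.9 and 366.9 (-0.38, adjusted p = 0.0338). HK2 and PDK1 were below all 4 control arrays and P4HA1 was not. PDK1 was so by little, with 256.5 and 272.6 on the EZH2-arm controls. Against those controls the differences were -0.42 for HK2, -0.08 for PDK1 and -0.02 for P4HA1. HK2 passed only without control array 2 (0.0421), and PDK1 (0.132 to 0.299) and P4HA1 (0.11 to 0.456) in no fit with an array left out. Among 27 ATF4 and endoplasmic reticulum stress genes HERPUD1 rose from 430.6 and 393.9 to 528.9 and 527.9 (0.36, adjusted p = 0.0344; 0.144 to 0.364 with an array left out). In the list of FOXO-linked quiescence genes TRIB1 and RBL2 rose and CITED2, a co-regulator of transcription, fell from 567.9 and 551.2 to 374.9 and 399.7 (-0.53, adjusted p = 0.00481; 0.0538 to 0.0976 with an array left out). CITED2 read 360.8 and 320.4 on the EZH2-arm controls. This list had 17 of 23 values above 0 and a median of 0.08. Other pathways had no call by limma. The median was 0.04 for 24 genes of NF-kB (2 at an unadjusted p under 0.05), 0.01 for 19 of PI3K and mTOR (5), -0.05 for 15 of the MYC network (3), -0.02 for 26 Polycomb genes (4), -0.001 for 31 interferon-stimulated genes (5) and 0.07 for 26 lysosomal genes (3).

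Changes under 0.5 made up most of the calls, and those with the smallest p among them had varied roles. YPEL2 rose from 128.8 and 131.7 to 178.1 and 174.1 (0.44, adjusted p = 0.00964), BAG2, a co-chaperone of HSP70, from 1846 and 1791 to 2560 and 2543 (0.49, adjusted p = 0.00622), and PAN2, a deadenylase that shortens mRNA tails, from 115.8 and 111.7 to 151.9 and 155.3 (0.43, adjusted p = 0.00964). ANO3 (0.49), CA12, a carbonic anhydrase (0.47), the antisense transcript KTN1-AS1 (0.49) and the dim DCP1B, of the decapping complex (0.49), rose as well. Among the falls, MAP3K5, the stress kinase ASK1, went from 178.5 and 172.9 to 129.9 and 125.7 (-0.46, adjusted p = 0.00643), FLOT1, a scaffold of membrane rafts, from 1010 and 1005 to 717.5 and 726.9 (-0.48, adjusted p = 0.00458), and SUV39H2, a methyltransferase for histone H3, from 187.8 and 179.7 to 139.1 and 129.7 (-0.45, adjusted p = 0.00991). UGCG, which makes glucosylceramide, fell by 0.49 (adjusted p = 0.00836) and APOL6 by 0.43 (adjusted p = 0.00976). Of these 12 genes only APOL6 was not apart from all 4 control arrays. KTN1-AS1 passed without JAK3 siRNA array 1 (0.0485) and in no other fit with an array left out. The other 11 passed in none, with adjusted p from 0.0538 to 0.189.

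The JAK3 siRNA effect was set against the EZH2 siRNA effect of the same fit by limma's test of the difference, to see which changes were larger or smaller than those of another siRNA in the same cells. The difference passed for 53 genes (0.366% of 14466), and 42 of them were among the 200 calls. The difference contains the JAK3 siRNA effect by which the calls were made, so that this overlap was favoured in advance. JAK3 fell by 1.24 in its own arm and had 0.15 with EZH2 siRNA (difference -1.39, adjusted p = 8.68e-05). DUSP6 had -1.17 and -0.18 (difference -0.99, adjusted p = 0.00203), IL10 -0.86 and 0.13 (-0.99, adjusted p = 0.00299), CD274 -0.86 and 0.17 (-1.02, adjusted p = 0.00299), and MT2A 0.75 and -0.004 (0.75, adjusted p = 0.00494). The difference of effects did not pass for CISH (-0.21, adjusted p = 0.716), SOCS1 (-0.28, adjusted p = 0.394) or BCL6 (0.26, adjusted p = 0.871), which had -0.31, -0.21 and 0.59 with EZH2 siRNA. The 2 EZH2 pairs were uneven for BCL6 (1.10 and 0.07) and CISH (-0.465 and -0.146), and closer for SOCS1 (-0.251 and -0.175).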

How the data were processed

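RNA was measured on 17 arrays, of which 8 siRNA arrays entered the fit. The authors deposited linear signal intensity for 28869 probe sets; the background correction, normalization and probe summary behind it are not given in the sources used here. Values were used as deposited, after log2. Of the probe sets, 19310 had 1 gene symbol, 1752 several and 7807 none. The probe set with the highest mean stood for each of 18377 genes, of which 685 had more than 1, and genes with a mean log2 signal under 5.2, the 30th percentile over all probe sets, were not tested, apart from JAK3 and EZH2. Symbols were checked against RefSeq GRCh38.p14 (19279 matched, 0 changed).

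The test was that of limma 3.58.1 under R 4.3.3, read in with the data.table package, version 1.17.8 (lmFit, eBayes, two-sided, Benjamini-Hochberg, threshold 0.05), with 4 group means and a block for the EZH2 pairs, leaving 3 residual degrees of freedom. An SE therefore rests on the spread of both siRNA arms. Groups came from titles. The JAK3 arrays share only numbers, so that no block was used there. The fit was tested on simulated data.

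The members and the 56 gene lists were chosen with earlier results of these data known. Named are JAK3, DUSP6, CISH, SOCS1, BCL6 and MT2A, the 15 largest rises and falls among calls, the 10 calls under 0.5 with the smallest p in each direction, and from each list its 4 largest calls or, where it had no call, its 2 genes of smallest p. Any other gene was named after its values were seen. Alternatives were other normalization, centring, filters, probe set means, eBayes with trend, array weights, other blocks and arrays, and leaving out each array. Arrays carry no read count, and their number limits the precision.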

Additional observations from a re-analysis of the deposited data

Results flagged for a closer look

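The JAK3 siRNA effect and the EZH2 siRNA effect differed, by limma's test of the difference with an adjusted p under 0.05, in 29 of the genes named. Values are the JAK3 siRNA effect minus the EZH2 siRNA effect on the log2 scale, and each gene had been named for its JAK3 siRNA change. Differences below 0 were those of JAK3 (-1.39), FRG2C (-1.48), MMP12 (-1.16), SERPINB13 (-1.15), TNFRSF9 (-1.10), CD274 (-1.02), DUSP6 (-0.99), IL10 (-0.99) and HTR3B (-0.85). Smaller ones were those of SPRED1 (-0.76), EMP1 (-0.72), TGFBR1 (-0.70), RYBP (-0.69), ISL1 (-0.68), CXCR4 (-0.58), LCP2 (-0.56), PDK1 (-0.56) and TGFBR3 (-0.56). Differences above 0 were those of SNORA2B (0.95), IRAG2 (0.93), ANTXR2 (0.78), CLEC2D (0.77), MT2A (0.75), TSHR (0.73), TRIB1 (0.68), SCARNA16 (0.64), ITGA4 (0.60), MT1DP (0.59) and MYB (0.56). TNFRSF9 (-0.41 with JAK3 siRNA, 0.69 with EZH2 siRNA) and RYBP (-0.36 and 0.33) were not called after JAK3 siRNA. FRG2C, HTR3B, MMP12, ISL1, CXCR4, TGFBR1 and TGFBR3 also had control levels in the EZH2 arm that were not above those with JAK3 siRNA, or overlapped them, so that their differences rest on the JAK3-arm controls. The EZH2-arm controls of TNFRSF9 (406 and 718.6) were likewise below its JAK3 siRNA arrays (970.4 and 982.5). Those of RYBP (508.7 and 586.6) overlapped its JAK3 siRNA arrays (572.3 and 551.8).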

How the results depend on the processing

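The fall of JAK3 kept its size and its call under every alternative run (-1.25 to -1.21). The count of called genes, 200, was less stable. It was 94 with no filter, 125 with no replicate block in either arm, 104 with a replicate block in the JAK3 arm also, 699 with array weights and 523 with only the 4 arrays of the JAK3 arm, and 33 to 45 with an array left out. The numbers of the JAK3 arrays are shared but nothing in the labels ties the arrays, and the deviations of same-numbered arrays correlated with r = 0.151 across genes, so that the pairing was not used. The split of rises and falls was 62 and 104 with arrays centred on their medians, and 67 and 88 after quantile normalization. The 53 differences from the EZH2 siRNA effect became 15 with no filter, 29 with no replicate block, 19 with a replicate block in the JAK3 arm also, and 14 to 323 with an array left out, the most without EZH2 siRNA array 2 or its control. Over the 14 alternatives other than the one named last, 23 of the 200 calls were kept in every one that tested them, which for MMP12, TLR7 and TSHR were 13 (ADAM19, ANTXR2, COL6A5, DUSP6, EMP1, FRG2C, HTR3B, IL10, ISL1, JAK3, KDM7A, LAYN, LCP2, MMP12, MT2A, PCDH15, PPID, SERPINB13, SERPINE2, SLC1A4, TLR7, TRIB1 and TSHR), and 0 of 83 called genes that are named turned sign. Leaving out an array could not turn the sign of a call, since the groups of every called gene were separated. CDKN2D, not called, had -0.28 to 0.068 with an array left out, above 0 without JAK3 siRNA array 1. An alternative chosen after seeing the data set the JAK3 siRNA arrays against the EZH2-arm controls, though the labels do not say whether both arms were handled together. It called 941 genes (615 rose, 326 fell), with 95 of the 200 among them, and left JAK3 at -1.24. Of the 200 calls, 30 turned in sign there, 28 falls and 2 rises, and 8 of these 30 passed in the opposite direction, SERPINE2 (0.78) among them. Of the genes named by rule, called or not, those that turned were APOL6 (0.02), CITED2 (0.19), CXCR4 (0.038), FRG2C (0.64), HTR3B (0.27), IL12RB2 (0.19), ISL1 (0.032), KLRD1 (0.45), MMP12 (0.32), NFKB1 (0.032), PIK3CG (0.39), PSMA6 (0.073), RYBP (0.041), SERPINB4 (0.28), TGFBR1 (0.27), TGFBR3 (0.002), TLR7 (0.45), TNFRSF10A (0.059) and TNFRSF9 (0.85), and, to below 0, RPL3L (-0.091), RPS14 (-0.16), SMAD3 (-0.17) and SNORA2A (-0.42). The cause of these shifts was not tested. With 2 arrays a group, only larger or even changes can pass, and values near the lower quartile of signal, such as that of MMP12, carry little information on size.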

Other observations

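Among the called genes outside every list, SERPINE2, COL6A5, PCDH15, KDM7A and PPID passed without each array in turn, and they are named after their values were seen. SERPINE2, an inhibitor of thrombin and plasminogen activators, had 230.1 and 232 with JAK3 siRNA and 393.1 and 372.4 with control siRNA (-0.73, adjusted p = 0.000711), but 145.5 and 124.7 on the EZH2-arm controls, against which its difference was 0.78. COL6A5, a collagen chain, had 523.8 and 562.5 against 902.8 and 890.3 (-0.72, adjusted p = 0.000304), but against the EZH2-arm controls its difference was -0.038. PPID, a cyclophilin that works with HSP90, had 618.8 and 551.7 against 955.1 and 908.5 (-0.67, adjusted p = 0.000986), and KDM7A, a histone demethylase, 288 and 256.9 against 446.3 and 423 (-0.68, adjusted p = 0.00087). KDM7A and PPID were also below both EZH2-arm controls.

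Among other calls named after their values were seen were surface genes of lymphocytes. CD38, an activation marker with NAD-consuming activity, rose from 73.7 and 81.22 to 105.7 and 105.2 (0.45, adjusted p = 0.00991), and CD58, the ligand of CD2, from 299.9 and 310.3 to 433.2 and 407 (0.46, adjusted p = 0.0253). ADGRG1 (GPR56), an adhesion receptor of cytotoxic lymphocytes, rose from 101.1 and 100.3 to 146 and 144.2 (0.53, adjusted p = 0.00309). Integrin chains went both ways, as ITGB8 rose (0.36) and ITGA2 fell from 227.7 and 210.2 to 158.4 and 151.2 (-0.50, adjusted p = 0.012). VIT (0.57) and TENM2 (0.51) rose, and SULF1, a sulfatase that trims heparan sulfate, fell from 986.9 and 985.7 to 736.9 and 709 (-0.45, adjusted p = 0.012), though against the EZH2-arm controls it had 0.33. Of the 8 calls of this paragraph TENM2 passed in 1 fit with an array left out and the other 7 in none.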
